A study of Marchantia polymorpha with 18 samples.

Results

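MpCOI1 (Mp2g26590), MpJAZ (Mp6g06230) and MpNINJA (Mp1g04410) are the receptor, repressor and adaptor genes of oxylipin signalling in the liverwort Marchantia polymorpha. They were picked by these identifiers, with earlier results of the same data known, as 3 rows of a read count table of 19355 genes, and all 3 were among the 13450 genes with enough counts to be tested. RNA was sequenced from thallus, the flat plant body, of wild-type plants and of Mpglr-9, a CRISPR deletion allele of MpGLR. That gene encodes a channel of the glutamate receptor-like family. All plants had grown for 28 days on soil. Wounding meant that serrated forceps were used to crush 2 lobes of a plant. Crushed lobes (damaged) and adjoining uncrushed lobes (systemic) were taken 4 h later, and thallus of unwounded plants (intact) at the same time. Each of the 6 groups, 3 per genotype, held 3 biological replicates of 9 pooled plants, which gave 18 libraries. Mpglr-9 is the only allele, so an effect of MpGLR and one of that line cannot be told apart. In pooled lobes, fewer cells of a type and less RNA per cell cannot be told apart either.

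Oxylipins derive from polyunsaturated fatty acids, and the best known of flowering plants is jasmonoyl-isoleucine, the hormone of wounding and herbivory. In M. polymorpha the signal is dinor-12-oxo-phytodienoic acid (dn-OPDA), a relative of the jasmonate precursor. The F-box protein COI1 binds the hormone together with a JAZ protein and marks that JAZ protein for degradation. In the absence of hormone, JAZ represses MYC-type transcription factors, and NINJA links JAZ to the corepressor TOPLESS. In Arabidopsis thaliana many JAZ genes are themselves switched on when MYC factors are released, so their mRNA is used as a readout of the pathway. M. polymorpha has single genes for COI1 and JAZ in place of the JAZ family of flowering plants.

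The libraries held 17312755 to 30690205 counts. Marker genes of photosynthetic thallus (3 of 3 tested) were summed at 629 to 724 CPM (read counts scaled to a common library size by the trimmed mean of M-values, TMM) in the 12 intact and systemic libraries, and at 278 to 422 CPM in the 6 damaged ones. The list for dividing cells (22 genes, 20 tested, 1 at 0 in all libraries) was summed at 983 to 1092 and at 537 to 734 CPM. It includes the histone variants MpH2A.X.1, MpH2A.W.2 and MpH2A.Z, with 82237, 50338 and 43800 reads over all libraries. Whether these are limited to dividing cells was not tested. Of the 20 tested genes, 18 fell after crushing in the wild type and 17 in the mutant, where 27.8% and 27.2% of all tested genes fell. The 4 markers of oil body cells were summed at 110.3 to 144 CPM and at 360 to 511 CPM. Most of their reads were of MpC1HDZ (83253 over all libraries, against 6025 for MpR2R3-MYB2, 1896 for MpERF13 and 1802 for MpSYP12B). Only MpC1HDZ rose in both genotypes (log2 fold change 2.01 ± 0.15 in the wild type and 1.99 ± 0.15 in Mpglr-9, SE). MpSYP12B fell in the wild type (-0.46 ± 0.17, SE, adjusted p = 0.0301, edgeR) and was not called in the mutant. MpR2R3-MYB2 was called only in the mutant, as higher (0.27 ± 0.09, SE), and MpERF13 in neither. The summed rise is therefore that of 1 gene and not of the list. Gemma cup markers were summed at 58.0 to 69.5 and at 43.5 to 53.8 CPM, and male reproductive markers stayed at 0.312 to 2.25 CPM throughout. The part of these shifts in the results on damaged lobes was not tested. MpGLR itself was not analysed here, and the genotype labels therefore have no check from the counts.

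MpJAZ, the repressor gene, stood at one level in uncrushed thallus of both genotypes and at another in crushed lobes. In intact wild-type plants its 3 libraries held 36.6, 33.7 and 36.3 CPM, and in intact Mpglr-9 they held 32.8, 34.4 and 37.7 CPM. In systemic lobes the values were 35.4, 37.0 and 34.4 CPM in the wild type and 41.9, 37.0 and 37.7 CPM in the mutant. All 12 libraries without damage therefore lay between 32.8 and 41.9 CPM. In damaged lobes the wild type held 210.4, 179 and 157 CPM and the mutant held 208, 192 and 162 CPM, so that the lowest damaged library exceeded the highest undamaged one. In each genotype the damaged library numbered 1 was the highest and the one numbered 3 the lowest.

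**Figure D1:**
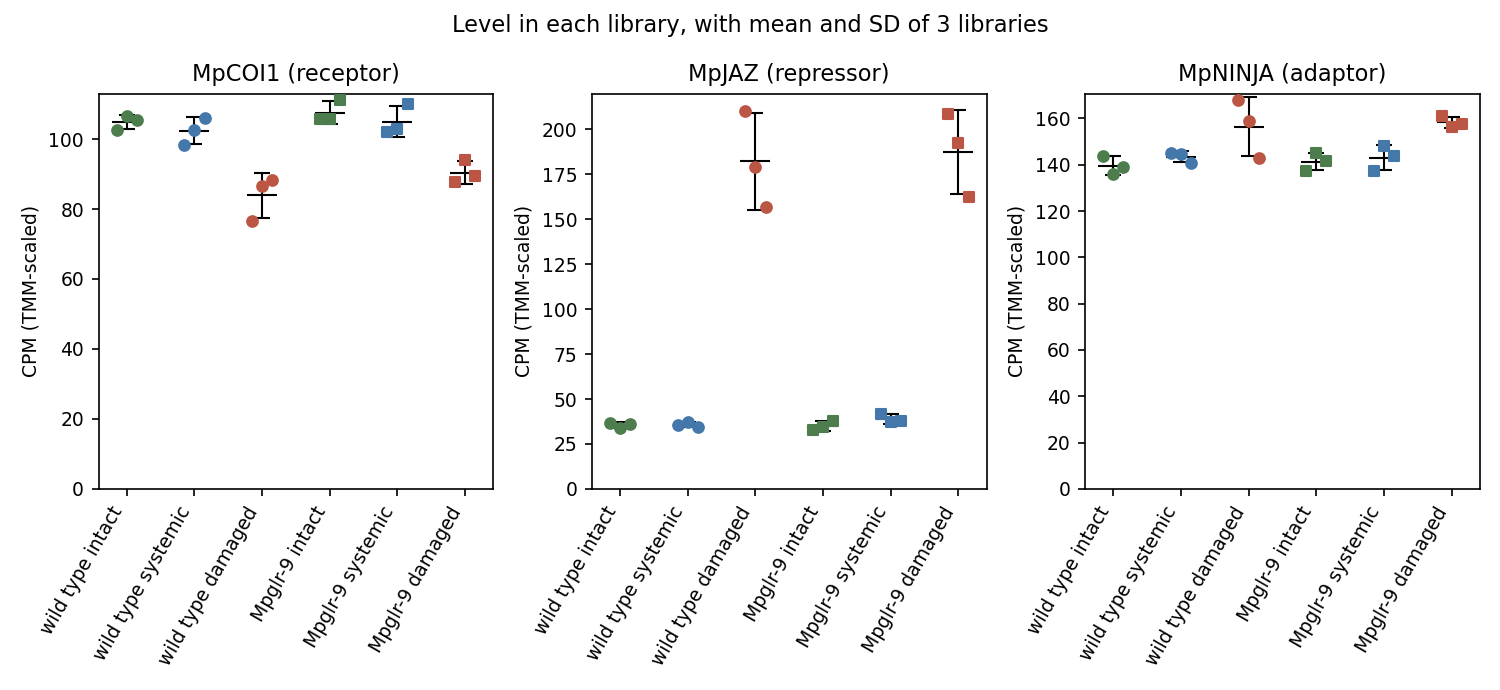
CPM of MpCOI1, MpJAZ and MpNINJA in each of the 18 libraries (points, circles for the wild type and squares for Mpglr-9), with the mean and SD of 3 libraries per group (black), each axis starting at 0. The 6 damaged libraries of MpJAZ sit between 157 and 210.4 CPM and the other 12 between 32.8 and 41.9. Those of MpCOI1 sit between 76.7 and 94.1 CPM, under the other 12 (98.4 to 111.3), by a far smaller step. Those of MpNINJA sit between 143.0 and 167.8 CPM and overlap the other 12 (136.0 to 148.2).

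MpCOI1, the receptor gene, was slightly lower in crushed lobes. Its libraries held 102.6, 106.7 and 105.5 CPM in intact wild-type plants, 98.4, 102.7 and 106.2 CPM in systemic lobes, and 76.7, 86.7 and 88.4 CPM in damaged lobes. In Mpglr-9 they held 105.8, 105.6 and 111.3 CPM in intact plants, 101.9, 103.0 and 110.1 CPM in systemic lobes, and 87.7, 94.1 and 89.3 CPM in damaged lobes. The damaged libraries of each genotype all lay under its intact and systemic libraries. The lowest value of all, 76.7 CPM, came from wild-type damaged replicate 1, the library with the highest MpJAZ.

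MpNINJA, the adaptor gene, moved least. It held 143.9, 136.0 and 138.9 CPM in intact and 145.1, 144.8 and 140.7 CPM in systemic wild-type thallus, against 167.8, 158.8 and 143.0 CPM in damaged lobes. In the mutant it held 137.4, 144.9 and 141.6 CPM in intact, 137.4, 148.2 and 143.7 CPM in systemic and 161.0, 156.5 and 157.6 CPM in damaged thallus. The wild-type ranges overlapped, since the lowest damaged library lay under the highest intact one, while the mutant damaged libraries lay above all intact and systemic libraries.

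Ordered by mean level, MpJAZ was lowest in the intact mutant (35.0 ± 2.51 CPM, SD, n = 3) and ran through 35.5 ± 1.58 in intact and 35.6 ± 1.32 in systemic wild type to 38.9 ± 2.63 in systemic mutant lobes, and then to 182 ± 26.9 and 188 ± 23.4 CPM in damaged wild-type and mutant lobes. Neighbours in this order overlapped except at 2 steps, from the wild-type to the mutant systemic lobes, where the gap was 0.0114 CPM between libraries numbered 2, and from there to the damaged lobes. MpCOI1 ran from 83.9 ± 6.34 and 90.4 ± 3.35 CPM in damaged wild-type and mutant lobes to 102.4 ± 3.86 in systemic wild-type lobes, 104.9 ± 2.09 in intact wild type, 105.0 ± 4.44 in systemic mutant lobes and 107.6 ± 3.22 CPM in intact mutant plants. Only the step from the damaged mutant to the systemic wild-type lobes had no overlap. MpNINJA ran from 139.6 ± 4.01 to 158 ± 2.35 CPM, in the order intact wild type, intact mutant, systemic mutant, systemic wild type, damaged wild type and damaged mutant, and each neighbouring pair overlapped.

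The spread between libraries was close to counting error in the quietest groups and larger in the others. MpJAZ had 693 to 4557 reads per library, so counting alone gives an error of at most 3.8%, and its coefficient of variation was 3.71% to 7.17% in the 4 undamaged groups but 14.8% and 12.5% in the damaged ones. MpCOI1 had 1294 to 3249 reads and varied by 1.99% to 7.56%, and MpNINJA had 2709 to 4277 reads and varied by 1.48% to 8.04%. The widest group of each gene was the damaged wild type. Among genes within 2-fold of its mean level over all 18 libraries, 85% had a smaller spread within groups than MpJAZ, against 30.9% for MpCOI1 and 28.5% for MpNINJA. For MpJAZ that mean, 85.8 CPM, lies between its undamaged and damaged levels. Its spread was pooled over all 6 groups and so includes the wider damaged ones.

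The comparison of damaged with intact thallus asked how the signalling genes respond locally to crushing. In the wild type all 3 genes were called at an adjusted p under 0.05 (edgeR quasi-likelihood test over all genes), where 55.5% of all tested genes were called, 27.7% as higher and 27.8% as lower. A call is therefore the usual case here, and the 3 genes differ in size. MpJAZ rose 5.12-fold (95% interval 4.46 to 5.89, adjusted p = 1.68e-11, edgeR), and 3.31% of the tested genes changed by more in either direction. MpCOI1 fell by 19.9% (interval -25.7% to -13.8%, log2 fold change -0.32 ± 0.05, SE, adjusted p = 7.32e-05, edgeR), less than 51.4% of all genes. MpNINJA rose by 12.1% (interval 4.44% to 20.3%, adjusted p = 0.0120, edgeR), less than 70.9% of all genes. The MpNINJA call was lost with upper-quartile scaling, which moved the median of all genes to -0.12 (log2 fold change 0.07, adjusted p = 0.227, edgeR). It was also lost in a fit of the 2 groups alone (0.17, adjusted p = 0.0772) and without wild-type damaged replicate 1 (0.11, adjusted p = 0.0742). The alternatives gave adjusted p-values between 0.000668 (without wild-type damaged replicate 3) and 0.227. In CPM 2 of the 3 genes had no overlap between damaged and intact libraries, beside 60.6% of all genes.

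In Mpglr-9 the same comparison called all 3 genes in the same directions, beside 54.8% of all genes, 27.6% as higher and 27.2% as lower. MpJAZ rose 5.36-fold (interval 4.66 to 6.17, adjusted p = 1.21e-11, edgeR), and 2.84% of genes changed by more. MpCOI1 fell by 16.0% (interval -22.0% to -9.55%, adjusted p = 0.000733, edgeR) and MpNINJA rose by 12.1% (interval 4.45% to 20.3%, adjusted p = 0.0121, edgeR). With upper-quartile scaling the MpNINJA change was 0.07 on the log2 scale and was not called (adjusted p = 0.261, edgeR). All 3 genes had no overlap between the damaged and intact mutant libraries, beside 61.1% of all genes.

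**Figure D2:**
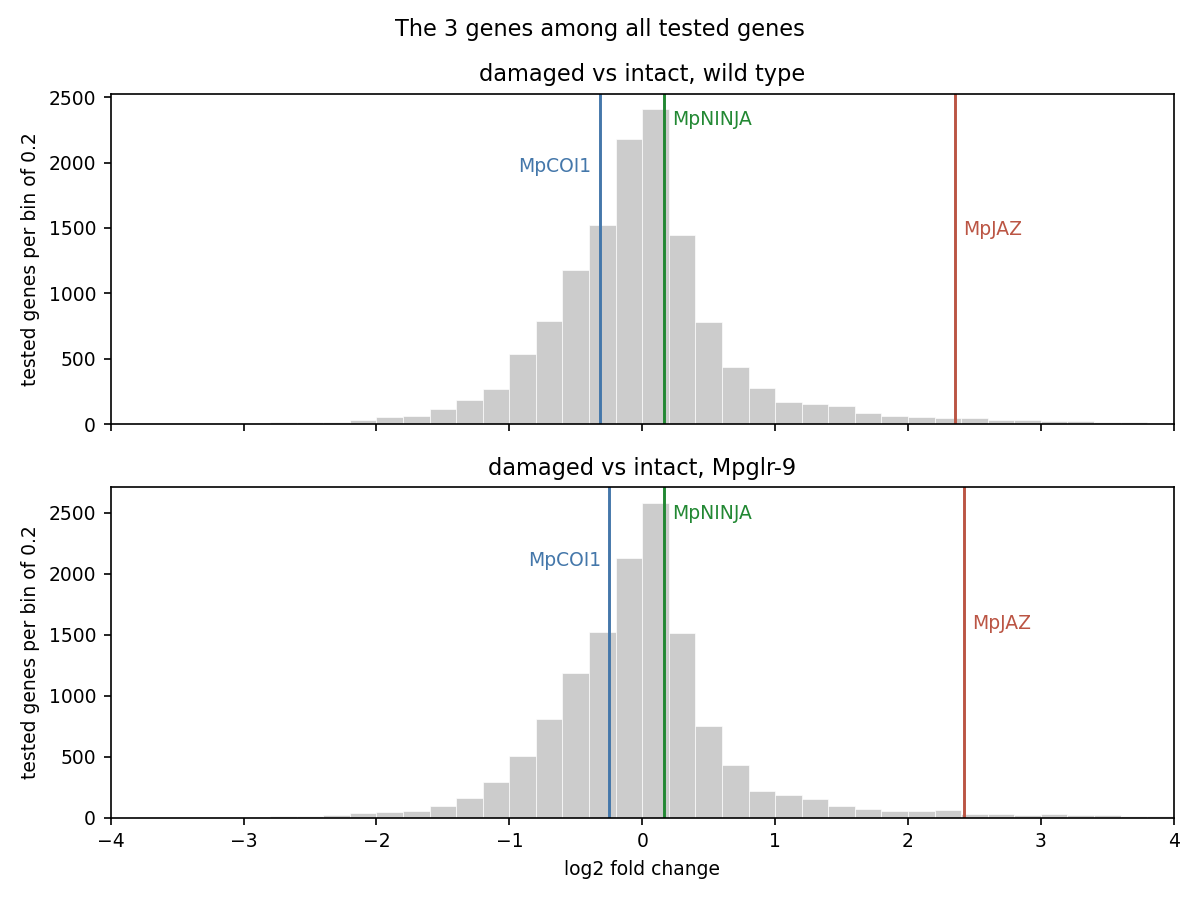
Numbers of tested genes in bins of 0.2 log2 fold change (grey bars; changes beyond 4 in either direction are not drawn) for damaged against intact thallus in the wild type (top) and in Mpglr-9 (bottom), with lines at the 3 genes. MpJAZ stands in the upper tail, at 2.36 and 2.42, and MpCOI1 and MpNINJA within the bulk of all genes.

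The interaction asked directly whether the local change differs between the genotypes. None of the 3 genes was called by edgeR, DESeq2 or limma-voom, and neither was any gene at all (0% of those tested, with 335 genes at an unadjusted p under 0.05 in edgeR). The mutant response divided by the wild-type response was 1.05 for MpJAZ (95% interval 0.865 to 1.27), 1.05 for MpCOI1 (0.945 to 1.16) and 1.00 for MpNINJA (0.905 to 1.10). A mutant response of MpJAZ more than 1.27 times the wild-type response, or under 0.865 times, lay outside the interval. Differences inside the interval remain possible, and the smallest difference that 3 libraries a group could detect was not computed.

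Ratios of read counts between the genes were also taken inside each library, where library size and scaling cancel. They compare the genes' changes and not their levels, since reads were not divided by transcript length. The MpJAZ to MpCOI1 ratio was 0.356, 0.316 and 0.344 in intact and 2.74, 2.07 and 1.77 in damaged wild-type libraries. In Mpglr-9 it was 0.310, 0.326 and 0.339 in intact and 2.38, 2.04 and 1.82 in damaged libraries. The ratio thus rose 6.38-fold in the wild type and 6.36-fold in the mutant, and in both genotypes it was highest in the damaged library numbered 1 and lowest in the one numbered 3. The MpJAZ to MpNINJA ratio rose 4.55-fold and 4.77-fold, from between 0.238 and 0.266 in intact to between 1.03 and 1.29 in damaged libraries. The MpNINJA to MpCOI1 ratio rose 1.402-fold and 1.33-fold, from between 1.27 and 1.403 in intact to between 1.62 and 2.19 in damaged libraries.

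All 6 damaged libraries exceeded all 6 intact ones in each of the 3 ratios. How many other pairs of genes separate in this way was not computed. Of single genes, 60.6% in the wild type and 61.1% in the mutant had no overlap between their 3 damaged and 3 intact libraries. An exact two-sided permutation test within genotype (6 against 6 libraries) gave p = 0.005 for each ratio, and p = 0.005 after adjustment over the 3 ratios. That is the smallest p that its 400 arrangements allow, and it restates the full separation of the libraries. The separation already follows from the CPM ranges given for each gene. The MpJAZ to MpCOI1 ratio is also the product of the MpJAZ to MpNINJA and MpNINJA to MpCOI1 ratios, so the 3 tests are not independent. The test therefore adds no support of its own. Within 1 genotype, 3 against 3 libraries cannot go below 0.1. The MpNINJA to MpCOI1 ratio does not depend on scaling. Its rise combines the fall of MpCOI1 (log2 fold change -0.32 in the wild type) with the change of MpNINJA (0.16). It therefore does not show a rise of MpNINJA alone. In systemic lobes the MpJAZ to MpCOI1 ratio lay between 0.324 and 0.361 in the wild type and between 0.343 and 0.411 in the mutant.

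**Figure D3:**
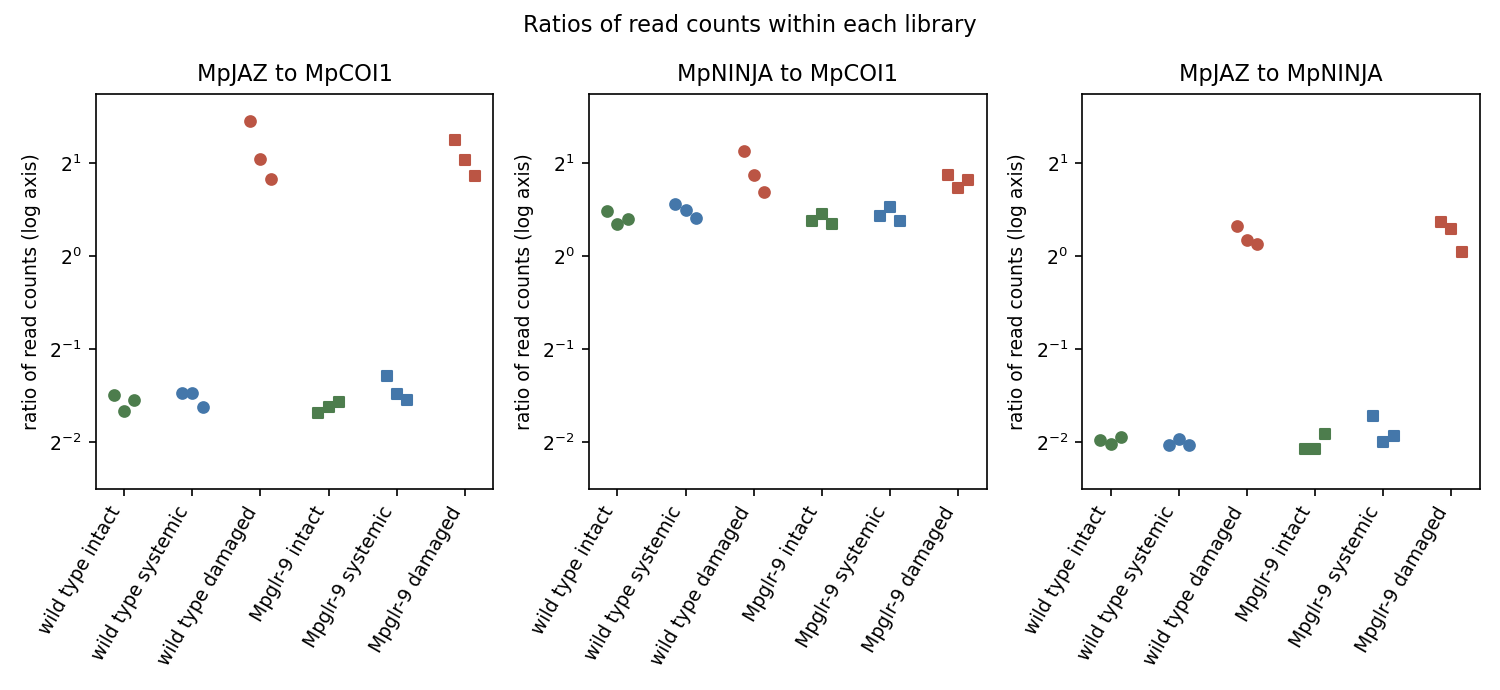
Ratios of read counts between the 3 genes within each of the 18 libraries, on a log axis (circles for the wild type, squares for Mpglr-9). Damaged libraries (red) stand above all others in each panel, by the largest step for MpJAZ to MpCOI1, from at most 0.411 in undamaged to at least 1.77 in damaged libraries.

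Systemic lobes were set against intact thallus to look for a response away from the wound after 4 h. None of the 3 genes was called by edgeR, DESeq2 or limma-voom in either genotype. Across all genes edgeR called 0% in the wild type and 0% in the mutant, with 353 and 810 genes at an unadjusted p under 0.05. DESeq2 called 8 and 0 genes, and limma-voom called 0 in each. MpJAZ was at 1.00 times its intact level in the wild type (95% interval 0.871 to 1.15) and at 1.11 times in the mutant (0.966 to 1.28). MpCOI1 was at 0.976 times its intact level in both, with intervals of 0.907 to 1.05, and MpNINJA at 1.03 times (0.958 to 1.10) and 1.01 times (0.944 to 1.09). In CPM 0 of the 3 genes had no overlap between systemic and intact libraries, beside 9.39% of all genes in the wild type and 13.3% in the mutant.

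Averaged over both genotypes, MpJAZ was at 1.06 times its intact level in systemic lobes (interval 0.956 to 1.17), and 0% of all genes were called by edgeR (773 at an unadjusted p under 0.05, 23 called by DESeq2 and 0 by limma-voom). A systemic rise of MpJAZ above 1.17-fold lay outside this interval, against the rise of more than 5-fold in the crushed lobes next to them. The change from intact to systemic did not differ detectably between the genotypes for any of the 3 genes, with an MpJAZ difference of 0.15 ± 0.15 on the log2 scale (SE, adjusted p = 1.00, edgeR). That interaction called 0% of all genes by edgeR (356 at an unadjusted p under 0.05), and 0 by DESeq2 and limma-voom.

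Damaged and systemic lobes came from the same wounded plants. The main model has no term for this shared origin, so its intervals treat the libraries as independent. Set against systemic lobes, MpJAZ was 5.11-fold higher in damaged wild-type lobes (interval 4.44 to 5.88) and 4.83-fold higher in damaged mutant lobes (4.20 to 5.55). MpCOI1 was lower, at 0.82 times (0.761 to 0.884) and 0.861 times (0.799 to 0.927) its systemic level. MpNINJA was called in the mutant (1.11-fold, adjusted p = 0.0248, edgeR) and not in the wild type (1.09-fold, adjusted p = 0.0505, edgeR). The mutant call was lost with upper-quartile scaling (log2 fold change 0.044, adjusted p = 0.475, edgeR), without Mpglr-9 damaged replicate 1 (0.13, adjusted p = 0.0715) and without Mpglr-9 systemic replicate 1 (0.12, adjusted p = 0.0925). The wild-type difference was called with the replicate block (adjusted p = 0.0475, edgeR) and in DESeq2 (adjusted p = 0.0333), and was 0.024 on the log2 scale with upper-quartile scaling (adjusted p = 0.704, edgeR). These comparisons called 55.5% of all genes in the wild type and 53% in the mutant, and they share the damaged libraries with the comparisons against intact plants.

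The direct comparison of Mpglr-9 with wild type in each condition called none of the 3 genes by edgeR, DESeq2 or limma-voom. It called 0.0223% of all genes in intact, 0.0297% in damaged and 0.052% in systemic thallus. MpJAZ in the mutant was at 0.985 times the wild-type level in intact plants (interval 0.857 to 1.13), at 1.03 times in damaged lobes (0.905 to 1.17) and at 1.09 times in systemic lobes (0.948 to 1.26). MpNINJA was at 1.01, 1.01 and 0.997 times the wild-type level, and every interval for it lay between 0.929 and 1.09. MpCOI1 was at 1.03 times in intact, 1.08 times in damaged (0.998 to 1.16, unadjusted p = 0.0714, edgeR) and 1.03 times in systemic thallus.

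In CPM 0 of the 3 genes separated the genotypes in intact plants, beside 9.48% of all genes, and 0 in damaged lobes, beside 8.14%. In systemic lobes 1 gene did, MpJAZ by the gap of 0.0114 CPM, beside 14.7% of all genes. Over all conditions MpCOI1 was at 1.04 times the wild-type level in the mutant (interval 0.998 to 1.09, adjusted p = 0.644, edgeR), MpJAZ at 1.03 times and MpNINJA at 1.01 times, and none was called, beside 0.312% of all genes.

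Taken over all tested genes, libraries of the same number deviated together between the genotypes in intact and in damaged thallus. Whether this holds for each of the 3 genes was not tested. In damaged lobes the mutant minus wild-type difference of MpJAZ within a number was -2.08, 13.01 and 5.45 CPM, while the damaged libraries of both genotypes ran from 157 to 210.4 CPM. For MpCOI1 it was 10.99, 7.45 and 0.928 CPM, with the mutant higher in each pair. For MpNINJA it was -6.85, -2.30 and 14.6 CPM in damaged lobes and -6.51, 8.86 and 2.75 CPM in intact thallus. With the number as a block in a fit of the 2 groups alone, chosen after seeing the data, the MpJAZ difference in damaged lobes was 0.04 ± 0.06 (SE, adjusted p = 0.935, edgeR) and that of MpCOI1 was 0.10 ± 0.06 on the log2 scale (SE, adjusted p = 0.746, edgeR). That fit called 47 genes in damaged and 10 in intact thallus, and none of the 3 genes in either.

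**Figure D4:**
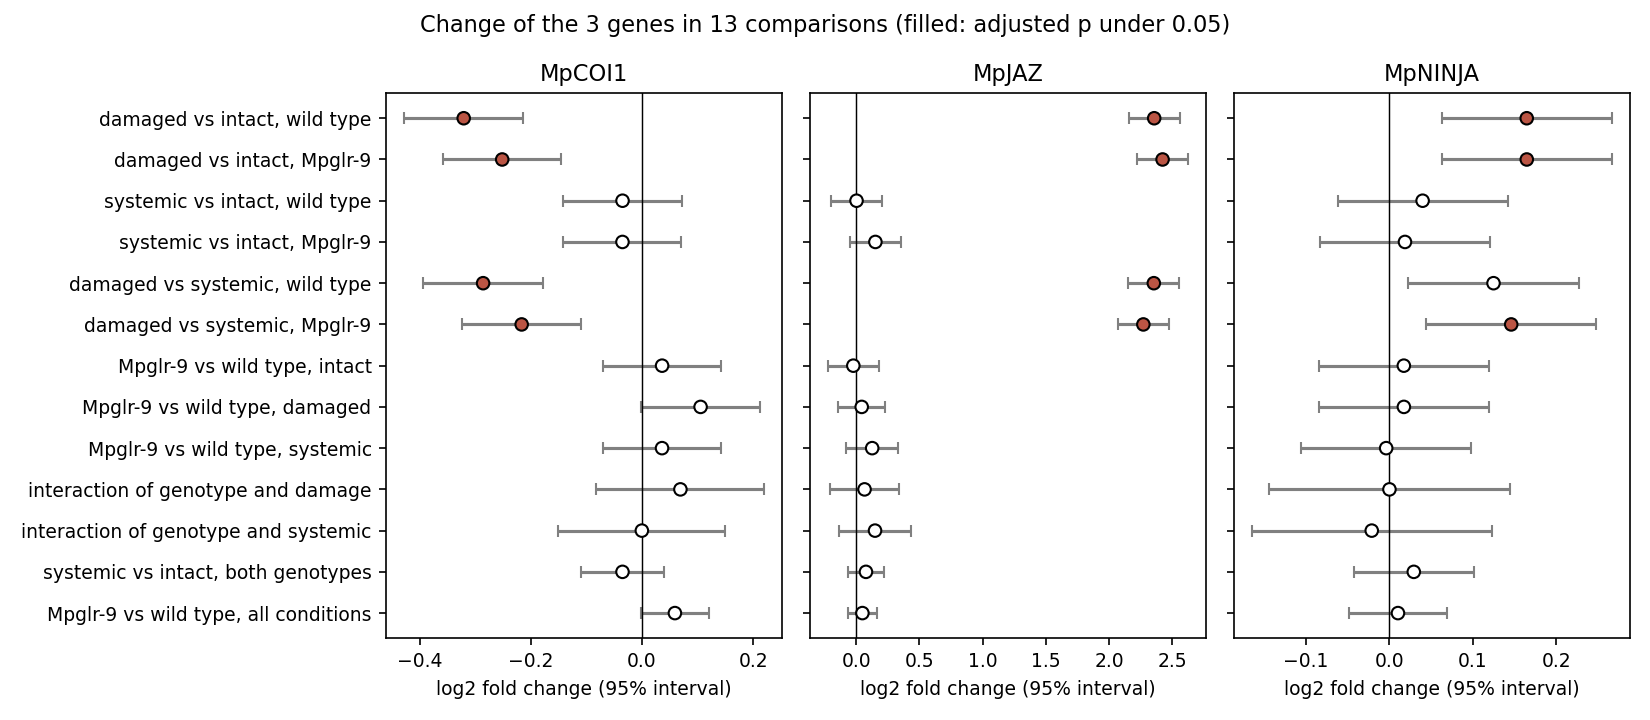
Log2 fold change with 95% interval of MpCOI1, MpJAZ and MpNINJA in 13 comparisons from 1 edgeR model of 18 libraries, with filled points for an adjusted p under 0.05 and a different horizontal scale in each panel. Filled points occur only in comparisons of damaged with undamaged thallus, and in the comparisons of the genotypes and in the interactions every interval includes 0.

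Other genes of the pathway, taken by symbol, gave the surroundings of the 3 genes. MpTPL, the corepressor of the TOPLESS family that NINJA recruits, held 188 ± 2.16 CPM in intact and 188 ± 7.80 CPM in damaged wild-type thallus (SD, n = 3). The log2 difference was 0.0027 ± 0.06 (SE) and was not called (adjusted p = 0.975, edgeR). In Mpglr-9 it was at 182 ± 10.6 and 186 ± 15.4 CPM (SD, n = 3). MpTIR1, the auxin receptor and an F-box relative of COI1, was at 134.4 ± 14.4 CPM in intact and 151 ± 2.62 CPM in damaged wild-type thallus (SD, n = 3), and was not called (adjusted p = 0.0630, edgeR). Its log2 difference of 0.17 ± 0.08 (SE) was close to that of MpNINJA, with a wider error. Against systemic lobes MpTIR1 was higher in damaged lobes of both genotypes, by 0.29 ± 0.08 and 0.33 ± 0.08 on the log2 scale (SE, adjusted p = 0.00370 and 0.00136, edgeR). MpMYCX, a gene of the MYC factors that JAZ represses, carries a locus number of the U chromosome. It has no row in the read counts and so could not be analysed. No other MYC gene was found by symbol.

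Of 30 tested genes of oxylipin synthesis, 17 rose and 6 fell after crushing in the wild type, and 16 rose and 6 fell in the mutant, with a median log2 fold change of 0.51 and 0.44 against -0.03 and -0.02 over all genes. Among all tested genes 27.7% rose and 27.8% fell in the wild type, and 27.6% and 27.2% in the mutant. The lists were chosen with earlier results of these data known. The 3 members with the highest mean CPM over all 18 libraries rose along with MpJAZ. That mean includes the damaged libraries, so the ranking favours genes that rise and gives no support of its own. By intact wild-type level MpFAD10 and MpFAD5 came next after MpFAD11, at 538 and 361 CPM, and they held 670 and 385 CPM in damaged lobes. MpLOX2, a lipoxygenase gene of the first step, rose by 3.46 ± 0.11 and 3.56 ± 0.11 on the log2 scale in the wild type and mutant (SE). MpCYP74N2, of the P450 family that holds the allene oxide synthases, rose by 3.101 ± 0.13 and 3.05 ± 0.13, and the desaturase gene MpFAD11 rose by 1.21 ± 0.08 and 1.25 ± 0.08.

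Of 4 genes of hormone conjugation and oxidation, 2 rose and 2 fell in each genotype, in comparisons that called 55.5% and 54.8% of all genes. The level of MpGH3A, which encodes an acyl acid amido synthetase, rose from 59.2 ± 4.00 to 635 ± 105 CPM in the wild type and from 56.1 ± 5.59 to 632 ± 138 CPM in the mutant (SD, n = 3). Its relative MpGH3B fell from 6.70 ± 0.320 to 2.93 ± 0.393 CPM in the wild type (SD, n = 3). MpCYP94-like, a cytochrome P450 gene named here after its values were seen, rose 7.34-fold and 8.20-fold from 1.60 ± 0.376 and 1.39 ± 0.0655 CPM (SD, n = 3), while MpCYP94L1 fell by 0.49 and by 0.91 on the log2 scale. In A. thaliana, CYP94 enzymes oxidise jasmonoyl-isoleucine. In the systemic comparisons and in those of the genotypes, including the interactions, 0 of the 36 other pathway genes were called by edgeR, DESeq2 or limma-voom, with between 1 and 4 at an unadjusted p under 0.05 in edgeR.

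**Figure D5:**
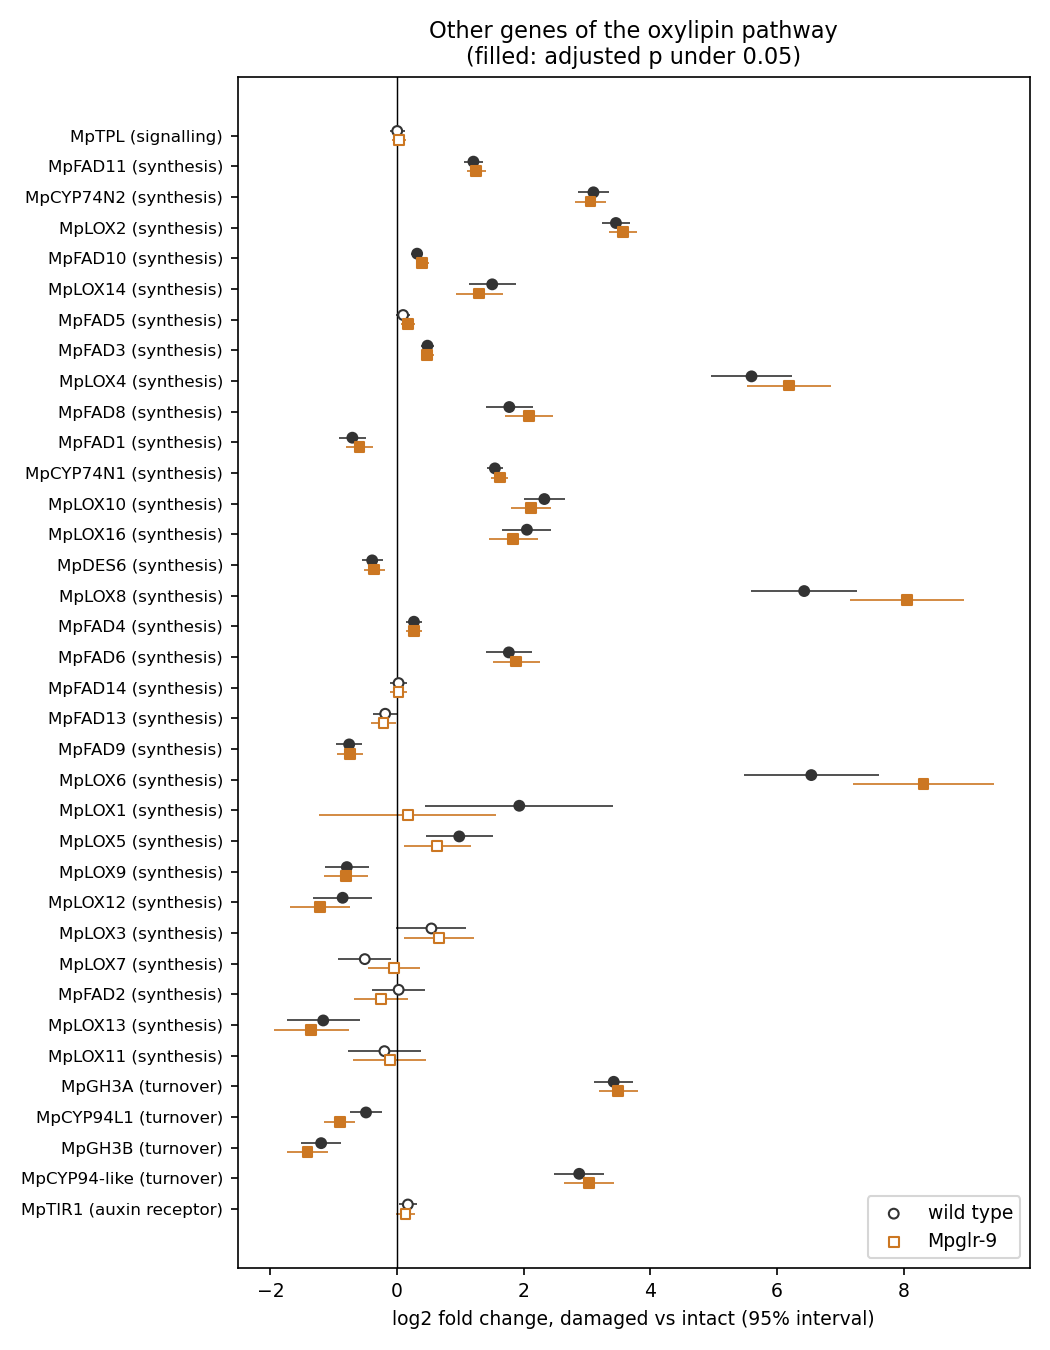
Log2 fold change with 95% interval, damaged against intact thallus, of the 36 tested pathway genes other than the 3 described, in the wild type (black circles) and Mpglr-9 (orange squares), with filled points for an adjusted p under 0.05. Synthesis genes are sorted by mean level. MpTPL and MpTIR1 are not called in either genotype.

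The gene with the locus number next to that of MpJAZ, Mp6g06220, followed it closely. It held 26.9 ± 2.91 CPM in intact and 134 ± 10.6 CPM in damaged wild-type thallus, and 25.8 ± 3.24 and 149.6 ± 22.9 CPM in the mutant (SD, n = 3). It rose by 2.31 ± 0.11 and 2.53 ± 0.11 on the log2 scale (SE, adjusted p = 4.19e-11 and 1.53e-11, edgeR), which differed from MpJAZ by 0.04 in the wild type and by 0.11 in the mutant, and in all 18 libraries it had between 0.649 and 0.836 reads for each MpJAZ read. Of 13440 pairs of neighbouring tested genes, 12.5% had wild-type changes within 0.1 of each other, and the median difference of a pair was 0.47 in the wild type and 0.46 in the mutant. No locus of that number is in the names table, and whether the 2 gene models overlap or share reads was not tested. The strand setting of the counting is not given in the sources used here.

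On the other side of MpJAZ, Mp6g06260 rose by 0.58 ± 0.12 in the wild type and 0.48 ± 0.12 in the mutant (SE). Both neighbours of MpCOI1 also fell, Mp2g26580 by 0.49 and Mp2g26600 by 0.33 on the log2 scale in the wild type. Next to MpNINJA, Mp1g04400 differed by 0.06 ± 0.06 in the wild type (SE, adjusted p = 0.419, edgeR) and rose by 0.19 ± 0.06 in the mutant (SE, adjusted p = 0.0177, edgeR). Mp1g04420, on the other side at a mean of 0.673 CPM, differed by -0.24 ± 0.37 and -0.06 ± 0.36 (SE) and was not called in either genotype.

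The genes most like each member were taken by Pearson correlation of log2 CPM over the 18 libraries among 10369 genes with a mean of at least 5 CPM. These libraries fall into damaged and undamaged ones, and share their depth and scaling. For MpJAZ the 4 closest were Mp5g14710, Mp4g16940, Mp4CL2 and Mp8g08460, each at r = 0.998. Mp4CL2, a 4-coumarate:CoA ligase gene at the entry of phenylpropanoid synthesis, rose by 3.22 ± 0.12 in the wild type and 3.19 ± 0.12 in the mutant, and Mp8g08460 by only 1.04 ± 0.06 and 1.09 ± 0.06 on the log2 scale (SE). In all 1921 genes had r of at least 0.9 with MpJAZ. The deviations from the group means correlated with those of MpJAZ at r = 0.835 to 0.888 for these 4 genes, which were picked for their correlation. These deviations still hold differences in the size of the response among damaged libraries.

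For MpCOI1 the closest genes were Mp4g18060 (r = 0.970), Mp2g10900 (0.968), Mp4g03530 (0.967) and Mp2g25280 (0.967), and 835 genes reached 0.9. They fell by between 0.48 and 0.58 on the log2 scale in the wild type after crushing. For MpNINJA they were Mp6g12850 (r = 0.969), Mp6g03270 (0.936), Mp8g01090 (0.930) and Mp1g09080 (0.922), and 19 genes reached 0.9. They rose by 0.27 to 0.83 in the wild type, each by more than MpNINJA. None of these 8 genes has a symbol in the names table.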

How the data were processed

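The authors deposited raw read counts per gene, 1 table of 19355 genes and 18 libraries of poly-A RNA. Per the submitters' processing notes HISAT2 and HTSeq were used; their versions, the strand setting and the build were not given in the sources used here. Symbols were matched by locus number to a RefSeq table (assembly MpTak2_v7.1), of which no coordinate was used; 17384 genes matched. Reads of overlapping or near-identical genes may have been split or lost.

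The fit used edgeR 4.0.16 (R 4.3.3) on these counts: filterByExpr by group (13450 genes left), TMM scaling, and a robust quasi-likelihood model with 6 group means over 18 libraries. Tests were two-sided, with Benjamini-Hochberg adjustment over all tested genes in each comparison and calls at an adjusted p under 0.05. SE is the log2 fold change divided by the square root of F, and 95% intervals are 1.96 SE either side. The 1.96 is the value of a normal distribution and ignores the small number of libraries, so these intervals are somewhat too narrow. DESeq2 1.42.0, limma-voom (limma 3.58.1), other scalings, no filter, a replicate block and leaving out each library were alternatives. The code was tested on simulated data.

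The 3 genes, taken by identifier, and all lists were chosen with earlier results of these data known. The rule for names took the 3 genes, the 4 genes most correlated with each, tested neighbours by locus number and the signalling genes. It also took the 3 genes of each other pathway class with the highest mean CPM over all 18 libraries. In the pathway list GH3 was limited to MpGH3A and MpGH3B, since MpGH3 followed by a number may stand for a glycoside hydrolase family. No rhizoid marker had a symbol in the names table.

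Replicate numbers were checked through the deviations from group means. In same-numbered libraries of both genotypes these correlated at 0.314 to 0.680 in intact and 0.117 to 0.391 in damaged thallus, and at 0.174, 0.113 and 0.313 between damaged and systemic mutant lobes. Every other comparison made between 2 groups had a pair under 0.1, so there the number was not taken as a pairing. The source of the pairing is the data and not the labels.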

Additional observations from a re-analysis of the deposited data

How the results depend on the processing

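Changes are on the log2 scale. Of 324 alternatives for each gene, 310 for MpCOI1, 316 for MpJAZ and 288 for MpNINJA kept the direction and the side of the threshold; 14, 8 and 19 changed sign, none of them called. After crushing MpJAZ ran from 2.24 to 2.45 in the wild type and from 2.33 to 2.52 in Mpglr-9 over all alternatives, and MpCOI1 from -0.41 to -0.26 and from -0.35 to -0.22, all called. MpNINJA is the gene whose calls depend on the processing, and the cause was not tested. Damaged against intact, it was 0.072 and 0.067 in the wild type and mutant with upper-quartile scaling and 0.17 in a fit of the 2 wild-type groups alone, none called; it ran from 0.11 to 0.23 in the wild type with 1 library left out, and was lost without wild-type damaged replicate 1. Damaged against systemic, the wild-type change was called in 10 of 25 alternatives, some of them with 1 library left out. It was called with DESeq2's size factors (0.13), in DESeq2 (0.13) and with the replicate block (0.12). It was 0.024 and not called with upper-quartile scaling, and ran from 0.074 to 0.19 with 1 library left out. In the mutant it was 0.044 and not called with upper-quartile scaling, and ran from 0.12 to 0.18 with 1 library left out, with the call lost without Mpglr-9 damaged replicate 1 and without Mpglr-9 systemic replicate 1.

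The remaining sign changes were in differences near 0. The interaction with damage for MpNINJA was -0.0053 with DESeq2's size factors, -0.0044 with upper-quartile scaling and -0.0042 in DESeq2; the interaction with the systemic change for MpCOI1 was 0.00097 without a filter and 0.00032 in limma-voom; systemic against intact wild type was -0.00081 for MpJAZ in limma-voom. With 1 library left out, MpJAZ ran from -0.033 to 0.027 (systemic against intact, wild type), from -0.078 to 0.021 (mutant against wild type, intact), from -0.053 to 0.16 (damaged) and from -0.030 to 0.18 (interaction with damage), and MpCOI1 from -0.035 to 0.027 (interaction with the systemic change). MpNINJA ran from -0.0074 to 0.046 (systemic against intact, mutant), from -0.0022 to 0.040 (mutant against wild type, intact), from -0.043 to 0.069 (damaged), from -0.030 to 0.023 (systemic), from -0.010 to 0.028 (all conditions), from -0.061 to 0.052 (interaction with damage) and from -0.047 to 0.0064 (interaction with the systemic change).

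Counts of called genes outside the damage comparisons were small and moved. DESeq2 called 8 genes in systemic against intact wild type, 23 over both genotypes, and 7, 29, 33 and 112 between the genotypes in intact, damaged, systemic and all conditions. The replicate block called 1 and 11 genes in systemic against intact (wild type, both genotypes), and 9, 16 and 84 between the genotypes in damaged, systemic and all conditions. The block changed no other call of the 3 genes than that of MpNINJA given above. The fit of the 2 groups alone called 2 genes (damaged) and 28 (systemic); with the block added, an alternative chosen after seeing the data, it called 10 (intact), 47 (damaged) and 177 (systemic), where the numbers did not pair. With 1 library left out, the counts ran from 0 to 3 (systemic against intact, wild type), from 3 to 11 between genotypes in damaged and likewise in systemic thallus, from 21 to 59 over all conditions, and from 0 to 1 for the interaction with damage. A group left with 2 libraries shares its spread with the other groups. The within-library ratios kept direction and threshold in all 14 alternatives each, from 2.56 to 2.74 for MpJAZ to MpCOI1, 0.39 to 0.50 for MpNINJA to MpCOI1 and 2.17 to 2.27 for MpJAZ to MpNINJA. The alternatives reuse the same separated libraries and the ratios depend on each other, so keeping the threshold adds no support of its own. Counting error was at most 3.8% per library for the 3 genes.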
